A study of Mus musculus with 6 samples.

Results

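The set described here held 28 genes of cholesterol synthesis, sensing and transport, taken by symbol from a fixed list of the pathway, with no measured value as a criterion. The list was, however, chosen with earlier results of these data known. Of the 35975 gene rows with counts, 13573 had enough reads to be tested, and all 28 members were among them. RNA sequencing of interscapular brown fat, the heat-producing depot between the shoulder blades, compared C57BL/6 mice labelled Ctrl with Ucp1-Cre; Olfm4 flox/flox mice (Olfm4CKO), in which Cre recombinase under the promoter of the brown adipocyte gene Ucp1 removes floxed Olfm4, the gene of olfactomedin 4, which is a secreted glycoprotein. The labels do not say whether Ctrl mice carried Cre or the floxed allele, give no age or sex, and carry a wild-type tag in the titles of both groups. Each group has 3 libraries by the labels, of which 2 could be used per gene. The labels do not state that each library is a different mouse, and p-values therefore cover only the spread between these libraries.

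Cholesterol is built in the cytosol and endoplasmic reticulum from acetyl-CoA, first through mevalonate to farnesyl diphosphate and then through squalene and lanosterol. When membrane cholesterol is low, SCAP escorts the transcription factor SREBP2, encoded by Srebf2, to the Golgi for cleavage, and the freed factor raises transcription of the synthesis genes; when sterols are plentiful, INSIG proteins hold SCAP back in the endoplasmic reticulum. Liver X receptors act on the other side, raising the exporters ABCA1 and ABCG1 when oxysterols accumulate.

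For the tissue label, 10 brown adipocyte markers were read, and none was at 0 in any library. Being above 0 is a weak check, because nearly all markers of the other cell types read below were above 0 too. Ucp1 itself lay at 5891 and 9949 CPM (counts scaled to a common library total) in Ctrl replicates 1 and 2, and at 4796 and 3016 CPM in Olfm4CKO replicates 1 and 2. Libraries held 15346705 to 17309325 counts. The targeted gene could not check the genotype labels, because Olfm4 had 0 counts in all 4 libraries. Y-linked transcripts were present only in Ctrl replicate 1 (Ddx3y at 81.5 CPM), where Xist was at 0, against 48.2 CPM of Xist in Ctrl replicate 2 and 214 and 212 CPM in the Olfm4CKO libraries. The groups therefore differed in these sex-linked transcripts as well as in genotype, and what each contributes to the values below cannot be told apart. The Ctrl libraries also differed from each other in these transcripts. What this contributes to differences between Ctrl replicates 1 and 2 cannot be told apart from other differences between them. The sums of 9 marker lists are given after the members' results.

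Promoter sequence is shown for 3 members, because Idi1 and Insig1 had the widest range between libraries of all 28 and Hmgcs1 the narrowest. The windows are the 250 bases before the annotated start, from RefSeq on GRCm38.p6, written 5′ to 3′ along the gene's strand. Idi1 lies at chr13:8885356-8885605, Insig1 at chr5:28071162-28071411 and Hmgcs1 at chr13:119690101-119690350, each on the plus strand. Capitals mark the sterol regulatory element TCACNCCAC, the motif bound by SREBP proteins, and the CCAAT box (ATTGG on the other strand), bound by the factor NF-Y. Both strands were searched, and no marked motif overlapped another.
Idi1: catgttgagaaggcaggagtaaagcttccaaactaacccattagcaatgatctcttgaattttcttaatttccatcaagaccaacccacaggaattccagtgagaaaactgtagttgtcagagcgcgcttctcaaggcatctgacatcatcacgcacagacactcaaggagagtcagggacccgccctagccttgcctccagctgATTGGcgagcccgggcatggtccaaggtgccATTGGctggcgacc
Insig1: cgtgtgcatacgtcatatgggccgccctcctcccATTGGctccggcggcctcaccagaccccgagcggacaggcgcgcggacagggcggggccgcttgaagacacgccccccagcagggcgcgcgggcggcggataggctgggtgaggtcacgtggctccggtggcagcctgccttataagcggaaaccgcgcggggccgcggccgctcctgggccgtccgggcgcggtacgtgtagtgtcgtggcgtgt
Hmgcs1: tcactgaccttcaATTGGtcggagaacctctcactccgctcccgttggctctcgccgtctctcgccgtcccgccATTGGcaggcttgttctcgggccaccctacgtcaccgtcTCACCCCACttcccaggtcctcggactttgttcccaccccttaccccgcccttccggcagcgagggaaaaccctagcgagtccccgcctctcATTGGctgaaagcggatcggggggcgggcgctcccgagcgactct
The Hmgcs1 window held 1 sterol regulatory element and 3 CCAAT boxes, the Idi1 window 2 CCAAT boxes, and the Insig1 window 1 CCAAT box. Over the 22 members with an entry, which had 28 windows, the CCAAT box was found in 19 windows (67.857%), against 33.85% of all 32851 windows of this length. The sterol regulatory element in this spelling was found in 1 of the 28 windows (3.571%) and in 1.053% of all windows. These matches describe letters only, and other spellings of the element were not searched.

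No member differed between the groups in edgeR's quasi-likelihood test after Benjamini-Hochberg adjustment over all 13573 genes; the adjusted p was 0.9998 for each. Over all genes the same test called 0%, so the members' count of 0 matches the background. At an unadjusted p under 0.05 the test marked 287 genes, 2.11% of those tested, and 0 of the members, whose smallest unadjusted p was 0.139 (Stard4). DESeq2 called 4 genes and limma-voom 0, and neither called a member or gave one an unadjusted p under 0.05. The fitted log2 fold change, Olfm4CKO minus Ctrl, was above 0 in 10 members and below 0 in 18 (64.3%, against 51.4% of all genes), with a median of -0.16 against -0.01 over all genes. The 95% intervals of all 28 included 0, and their half-widths ran from 0.72 to 1.38 log2 units. Differences smaller than these half-widths were not detectable with 2 libraries per group. The median over the members depended on single libraries: it was -0.43 without Ctrl replicate 1, where Ddx3y was found, 0.20 without Ctrl replicate 2, 0.12 without Olfm4CKO replicate 1 and -0.52 without Olfm4CKO replicate 2. Leaving these out in the same order turned the sign of 5, 13, 10 and 8 members, and no member was called in any of these fits. In bulk tissue, fewer cells of a type and less RNA per cell cannot be told apart.

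**Figure D1:**
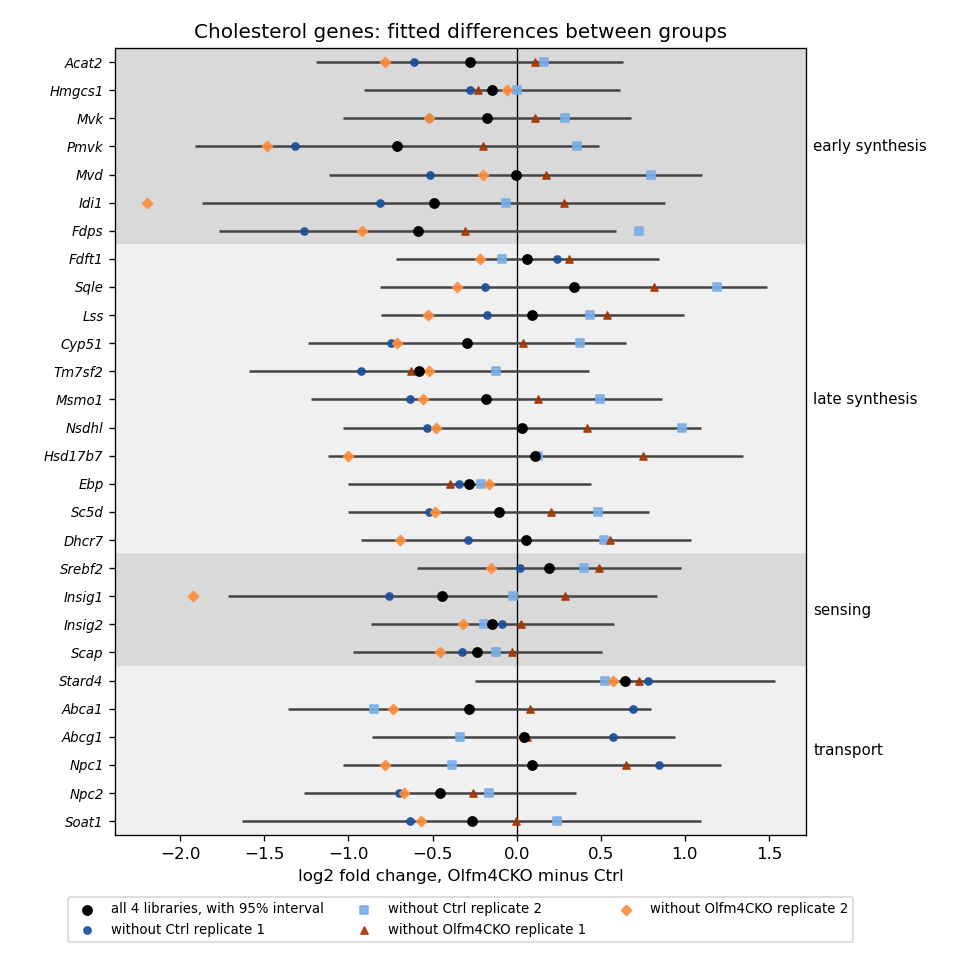
Fitted log2 fold change, Olfm4CKO minus Ctrl, of each of the 28 members by role, from all 4 libraries with its 95% interval (black point and line) and with each library left out in turn (coloured points). All 28 intervals cross 0, and the coloured points lie on both sides of 0 for 23 members.

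The members' levels spanned a wide range, given here as CPM per kilobase of merged exons so that genes can be compared. Npc2 had the highest mean over the 4 libraries at 85.9 (range 62.8 to 115), followed by Acat2 at 75.0 (47.9 to 101), Hmgcs1 at 69.7 (63.4 to 78.2) and Insig1 at 59.8 (18.2 to 85.2). Soat1, which esterifies cholesterol for storage, was lowest at 0.260, below Hsd17b7 at 1.23, Stard4 at 1.64 and Abcg1 at 1.80. The middle of the order ran from Fdft1 at 35.9, Fdps at 32.9 and Pmvk at 29.7 down to Idi1 at 4.35, Sqle at 4.33, Mvd at 4.06 and Tm7sf2 at 3.90. Of the 27 neighbouring pairs in this order, 25 had overlapping ranges; the pairs that did not overlap were Tm7sf2 above Abcg1 and Hsd17b7 above Soat1. With lengths from all annotated transcripts, a choice added after seeing the data, Acat2 led at 73.5, and Hmgcs1 (52.8), Npc2 (52.1) and Insig1 (52.1) followed. The same choice put Fdps at 11.3, below Pmvk (29.7) and Nsdhl (14.6), and Sqle at 2.15. It also turned the order of Tm7sf2 (1.499) and Abcg1 (1.68), so the gap between them depends on the length used.

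**Figure D2:**
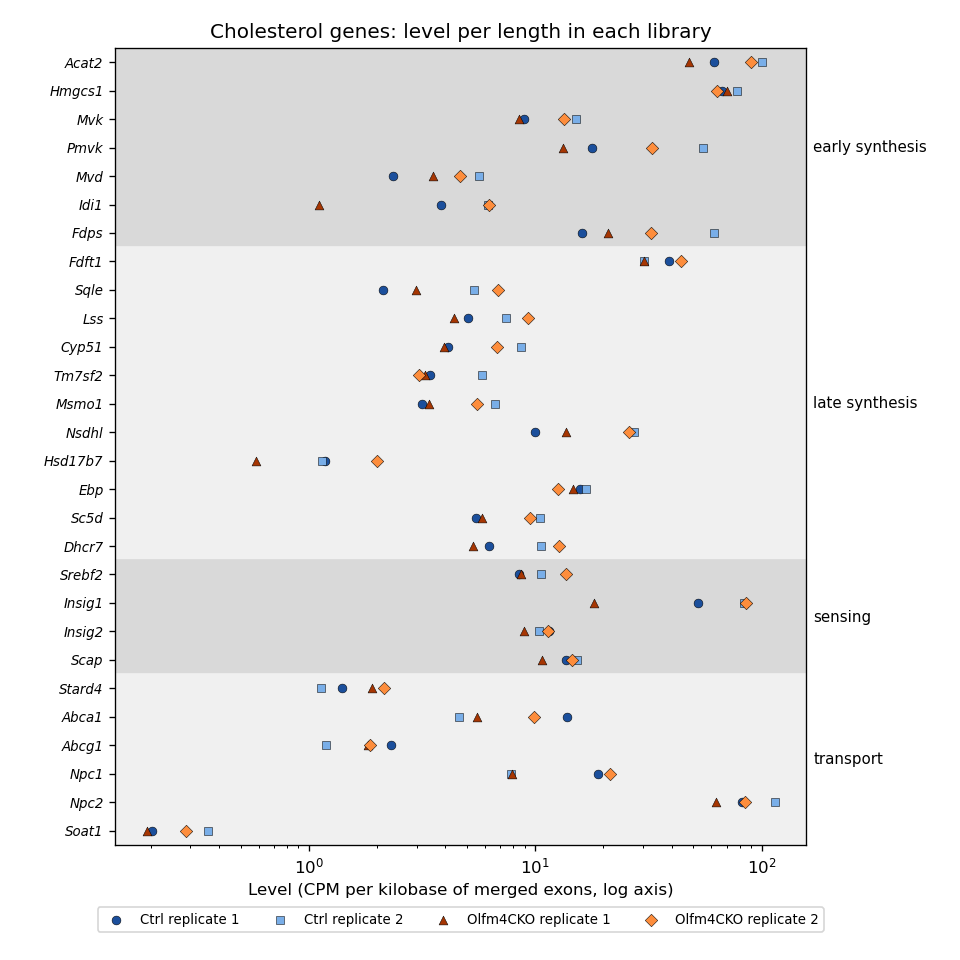
Level of each member in each of the 4 libraries, in CPM per kilobase of merged exons on a log axis, by role. Npc2, Acat2, Hmgcs1 and Insig1 sit highest and Soat1 lowest, and both replicate 2 libraries sit to the right of both replicate 1 libraries for many synthesis genes.

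The early synthesis genes, from acetyl-CoA to farnesyl diphosphate, numbered 7, and 0 of them had a log2 fold change above 0 (median -0.28). This shared direction depended on Ctrl replicate 2: without that library all of them but Idi1 (-0.06) were above 0. Acat2, the thiolase that joins acetyl-CoA units, lay at 153 and 251 CPM in Ctrl replicates 1 and 2 and at 119 and 224 CPM in Olfm4CKO replicates 1 and 2. The groups overlapped, with both replicate 2 libraries above both replicate 1 libraries, and the log2 fold change was -0.28 ± 0.41 (SE, 2 libraries per group, as for each fold change below). A near-identical copy, Acat3, had only 16 to 68 counts, and the authors' counting could have split reads between them. Hmgcs1, which makes HMG-CoA, was the steadiest member, at 232, 272, 245 and 221 CPM in the same order, and its log2 fold change was -0.15 ± 0.34. Its highest library was 1.23 times its lowest.

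The kinases and the steps after mevalonate followed. Mvk, mevalonate kinase, lay at 17.8 and 30.1 CPM in Ctrl and 16.98 and 26.6 CPM in Olfm4CKO. Pmvk, phosphomevalonate kinase, had the lowest log2 fold change of all members, -0.71 ± 0.54, from 30.6 and 94 CPM in Ctrl and 22.7 and 56.2 CPM in Olfm4CKO. Ctrl replicate 2 alone set its upper end: without that library the log2 fold change of Pmvk was 0.36, against -1.48 without Olfm4CKO replicate 2. Fdps, which makes farnesyl diphosphate, had the same shape, at 23.4 and 89.7 CPM in Ctrl and 30.5 and 47.3 CPM in Olfm4CKO. The log2 fold change of Fdps, -0.59 ± 0.54, became 0.72 without Ctrl replicate 2. Idi1, which interconverts the isopentenyl building blocks, was low in Olfm4CKO replicate 1 and closer together in the other 3 libraries. It lay at 11.6 and 18.7 CPM in Ctrl and at 3.34 and 19.0 CPM in Olfm4CKO. The log2 fold change of Idi1 was -0.49 ± 0.63 with all libraries, -2.20 without Olfm4CKO replicate 2 and 0.28 without Olfm4CKO replicate 1. Mvd, the decarboxylase of the series, had the lowest mean CPM of the early genes, with 4.14 and 9.94 CPM in Ctrl and 6.24 and 8.21 CPM in Olfm4CKO and a log2 fold change of -0.01 ± 0.50.

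Among the 11 late synthesis genes, from squalene to cholesterol, 6 had a log2 fold change above 0 and the median was 0.03. Fdft1, squalene synthase, lay at 145 and 111 CPM in Ctrl and 111 and 163 CPM in Olfm4CKO. Its exons overlap those of Ctsb on the opposite strand over 774 bases, and Ctsb had 18294 to 26974 counts; no source used here gives the strand setting of the counting, so the values of Fdft1 are uncertain. Sqle, squalene epoxidase, had the highest log2 fold change among the synthesis genes, 0.34 ± 0.52, at 5.89 and 14.8 CPM in Ctrl and 8.23 and 18.8 CPM in Olfm4CKO. The groups overlapped, and without Ctrl replicate 1 the log2 fold change was -0.19. Lss, which closes squalene epoxide into lanosterol, lay at 23.6 and 34.7 CPM in Ctrl and 20.5 and 43.5 CPM in Olfm4CKO.

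The demethylation steps after lanosterol showed the replicate 2 libraries high in both groups. Cyp51, the lanosterol demethylase, lay at 16.2 and 34.0 CPM in Ctrl and 15.6 and 26.5 CPM in Olfm4CKO, with a log2 fold change of -0.30 ± 0.43. Its exons overlap those of Akap9 on the opposite strand over 166 bases. Msmo1, the methylsterol oxidase, lay at 6.46 and 13.6 CPM in Ctrl and 6.95 and 11.3 CPM in Olfm4CKO. Nsdhl, the dehydrogenase that acts next, lay at 21.6 and 59.4 CPM in Ctrl and 29.6 and 56.0 CPM in Olfm4CKO, and the log2 fold change of Nsdhl was 0.03 ± 0.48. In all of Cyp51, Msmo1 and Nsdhl both replicate 2 libraries were above both replicate 1 libraries. Hsd17b7, the sterone reductase of the same complex, differed: it was level in Ctrl, at 5.96 and 5.78 CPM, and spread in Olfm4CKO, at 2.96 and 10.1 CPM.

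Both members whose Olfm4CKO libraries lay below both Ctrl libraries belonged to late synthesis. Tm7sf2, a sterol reductase, was at 5.83 and 9.82 CPM in Ctrl and at 5.53 and 5.21 CPM in Olfm4CKO, for a fitted log2 fold change of -0.58 ± 0.46. The gap between the groups was small beside the spread within Ctrl, and without Ctrl replicate 2 the log2 fold change was -0.12. Tm7sf2 shares 532 bases of exon with Vps51 on the same strand, which had 448 to 594 counts, so its reads could be shared. Ebp, the sterol isomerase, was at 27.5 and 29.1 CPM in Ctrl and 25.6 and 22.0 CPM in Olfm4CKO, for a fitted log2 fold change of -0.28 ± 0.33. Ebp and Nsdhl are the members on the X chromosome. Whether the sex-linked difference between libraries has a part in their values was not tested. Over all genes tested, 11% had both Olfm4CKO libraries below both Ctrl libraries, against 2 of 28 members (7.14%). The last enzymes of the pathway overlapped between groups: Sc5d, the sterol desaturase, ranged from 26.6 to 51.3 CPM, and Dhcr7, which reduces 7-dehydrocholesterol to cholesterol, from 17.5 to 42.2 CPM.

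In the sensing group of 4 genes, 1 had a log2 fold change above 0. Srebf2, the master regulator of the synthesis genes, lay at 42.9 and 54.0 CPM in Ctrl and 44.1 and 69.7 CPM in Olfm4CKO, with a log2 fold change of 0.19 ± 0.36. Its escort Scap was lowest in Olfm4CKO replicate 1 and close together in the other libraries, at 57.9 and 64.4 CPM in Ctrl and 45.1 and 61.6 CPM in Olfm4CKO. Insig1, both a target and a brake of SREBP2, showed that shape more widely, at 141 and 225 CPM in Ctrl and 49.0 and 230 CPM in Olfm4CKO. Olfm4CKO replicate 1 stood well below the other libraries and Olfm4CKO replicate 2 was level with Ctrl replicate 2. The log2 fold change of Insig1 was -0.44 ± 0.58, moved to -1.92 without Olfm4CKO replicate 2 and to 0.29 without Olfm4CKO replicate 1. Insig2, the other brake, which is not driven by SREBP2, stayed between 26.2 and 34.1 CPM in all 4 libraries. Per length, Insig1 exceeded Insig2 by 4.52 and 8.06 times in Ctrl and by 2.05 and 7.48 times in Olfm4CKO.

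Of the 6 transport genes, 3 had a log2 fold change above 0. Stard4, a cytosolic sterol carrier, was the member with the highest fold change and the only one with both Olfm4CKO libraries above both Ctrl libraries. It lay at 7.27 and 5.89 CPM in Ctrl and at 9.90 and 11.1 CPM in Olfm4CKO, for a fitted log2 fold change of 0.65 ± 0.40 (95% interval -0.25 to 1.54). With each library left out in turn it stayed between 0.53 and 0.78. Genes with both Olfm4CKO libraries above both Ctrl libraries made up 13.1% of all genes tested, against 1 of 28 members (3.57%).

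The exporters and the lysosomal gene Npc1 were higher in Ctrl replicate 1 than in Ctrl replicate 2, whereas 16 of the 18 synthesis genes were higher in Ctrl replicate 2, all but Fdft1 and Hsd17b7. Abca1, which loads cholesterol onto apolipoprotein A-I, lay at 142 and 47.1 CPM in Ctrl and at 57.0 and 101 CPM in Olfm4CKO, for a fitted log2 fold change of -0.28 ± 0.49. Abcg1, which exports cholesterol to larger lipoproteins, lay at 15.8 and 8.15 CPM in Ctrl and 12.4 and 12.7 CPM in Olfm4CKO. Npc1, which moves cholesterol out of lysosomes, lay at 99.3 and 40.8 CPM in Ctrl and 41.1 and 112 CPM in Olfm4CKO. The groups overlapped in all of these. Npc1 exons overlap Rmc1 on the opposite strand over 319 bases. Without Ctrl replicate 1 the log2 fold changes of Abca1 and Npc1 were 0.69 and 0.84, and without Ctrl replicate 2 they were -0.85 and -0.38. Npc2, the soluble partner that hands cholesterol to NPC1 inside the lysosome, did not share that order: it lay at 271 and 378 CPM in Ctrl and 207 and 278 CPM in Olfm4CKO, with a log2 fold change of -0.46 ± 0.37. Soat1 was low everywhere, at 1.61 to 3.004 CPM.

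For 26 of 28 members (92.9%) the log2 difference between the libraries of at least 1 group was larger than the fitted difference between groups. The share was 85.6% of 13533 genes with counts in every library. The exceptions among the members were Ebp and Stard4. Replicate 2 was above replicate 1 in both groups for 18 of 28 members (64.3%), against 20.7% of all genes tested, and below it in both groups for 0 members, against 22.6% of all genes. Of the 18 synthesis genes, 13 were higher in replicate 2 of both groups (72.2%). The median log2 difference, replicate 2 minus replicate 1, was 0.76 in Ctrl and 0.74 in Olfm4CKO for the synthesis genes, and -0.06 and 0.03 for all genes. The transport genes had medians of -0.63 in Ctrl and 0.50 in Olfm4CKO. Within Ctrl, Y-linked transcripts were found in replicate 1 alone, and neither Olfm4CKO library held them. The part of this in the differences within Ctrl was not tested. The labels give no meaning to the replicate numbers across groups, so whether a shared number links a Ctrl library to an Olfm4CKO library is not known.

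**Figure D3:**
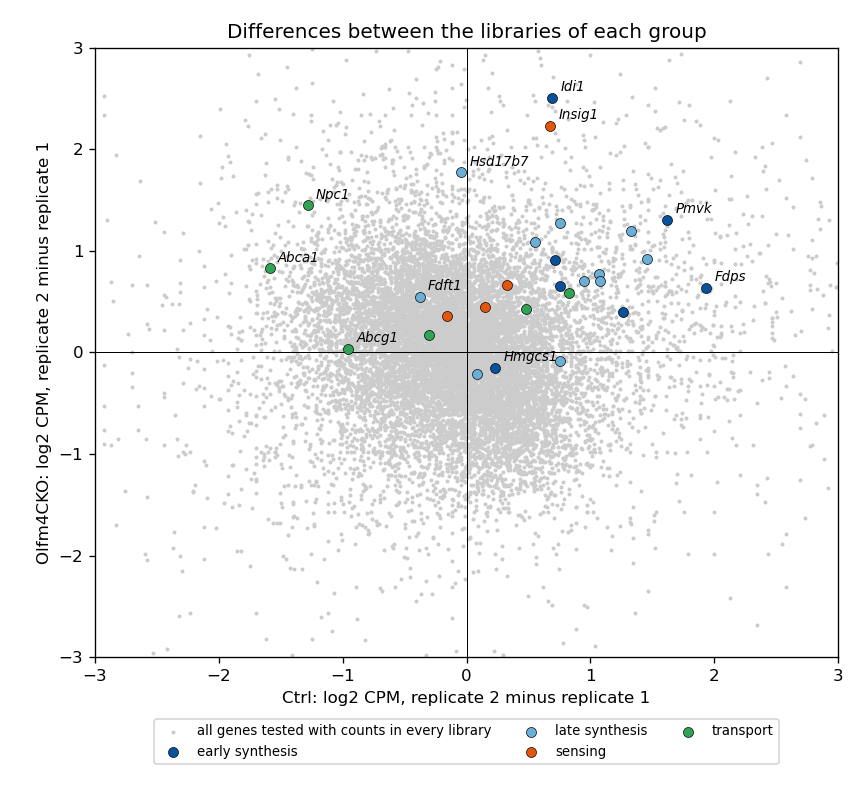
Log2 CPM difference between replicate 2 and replicate 1 within Ctrl (x axis) and within Olfm4CKO (y axis) for the members, coloured by role, and for all genes tested with counts in every library (grey); 183 of 13533 genes fall outside the axes. Most synthesis genes lie in the upper right part, and Abca1 and Npc1 in the upper left.

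The sizes of these within-group differences differed by gene. Pmvk was 3.07 times as high in replicate 2 as in replicate 1 of Ctrl and 2.47 times in Olfm4CKO. Fdps was 3.83 times as high in Ctrl and 1.55 times in Olfm4CKO. Idi1 and Insig1 were the reverse, at 1.61 and 1.598 times in Ctrl and 5.67 and 4.69 times in Olfm4CKO. Abca1 and Npc1 went opposite ways in the groups, at 0.332 and 0.411 times in Ctrl and 1.78 and 2.73 times in Olfm4CKO. Ctrl replicate 2 was the highest library for 15 members, Olfm4CKO replicate 2 for 10, Ctrl replicate 1 for 3 and Olfm4CKO replicate 1 for 0, which among all genes was highest for 28%. Olfm4CKO replicate 1 was the lowest library for 14 of the 28 members (50.0%), against 27.1% of all genes. For 15 members the highest library was more than 2 times the lowest.

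Summed levels per length gave a similar picture. The 7 early synthesis genes together reached 177 and 323 CPM per kilobase in Ctrl and 166 and 243 in Olfm4CKO. The 11 late genes reached 95.7 and 130.4 CPM per kilobase in Ctrl and 88.1 and 138 in Olfm4CKO. Both replicate 2 libraries were above both replicate 1 libraries in early synthesis, late synthesis and sensing. The transport genes summed to 119 and 129.7 CPM per kilobase in Ctrl and 80.1 and 119.9 in Olfm4CKO, so that only Olfm4CKO replicate 1 stood apart. The sensing genes summed to 85.9 and 119.6 CPM per kilobase in Ctrl and 46.4 and 125 in Olfm4CKO, and Insig1 made up most of the spread.

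**Figure D4:**
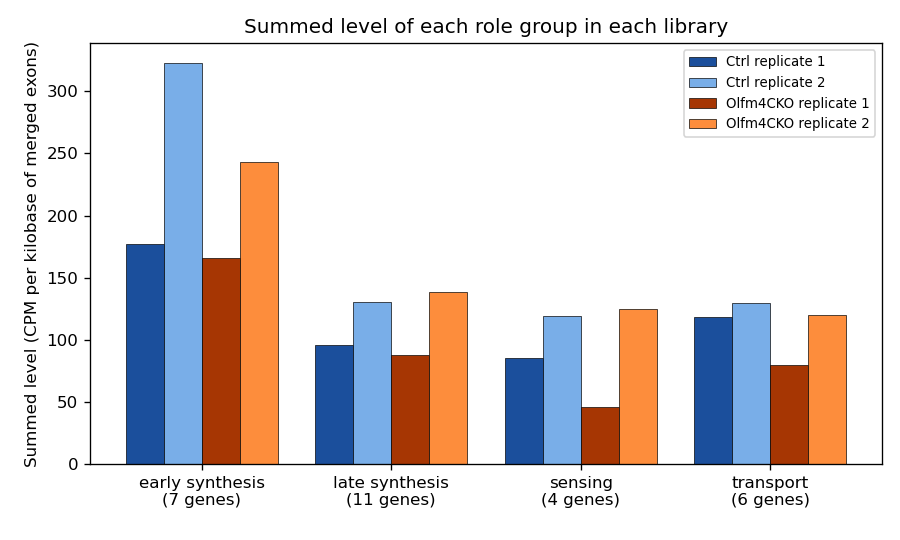
Summed level of the genes of each role in each library, in CPM per kilobase of merged exons; each bar is 1 library. The early synthesis bars run from 166 to 323 and the sensing bars from 46.4 to 125, with Olfm4CKO replicate 1 lowest in all 4 roles.

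Other genes of the pathway were read from 7 lists outside the 28, which held 78 further tested genes. Of these, 0 passed the adjusted threshold in edgeR and 3 had an unadjusted p under 0.05 (3.85%, against 2.11% of all genes tested); 28 had a log2 fold change above 0 and 50 below, with a median of -0.11, and 19 had groups that did not overlap (24.4%, against 24.2% of all genes tested). Beside the synthesis enzymes, 10 tested genes were split 5 and 5 (median -0.10). The mitochondrial thiolase Acat1 lay at 897 and 919 CPM in Ctrl and 670.0 and 654 CPM in Olfm4CKO (log2 fold change -0.49), and Por, the electron donor of Cyp51 and Sqle, at 269 and 293 CPM and at 210.5 and 236 CPM (-0.37). Neither passed the test. The isoprenoid branch, which uses farnesyl diphosphate for prenylation and coenzyme Q, had 6 of 13 genes above 0 and a median of -0.01. The geranylgeranyl transferase subunit Pggt1b had a log2 fold change of 0.38 and the prenyltransferase Coq2 of -0.29.

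The lists of control and uptake held more genes below 0 than above, and no call. Among 16 genes that control SREBP, 4 were above 0 and 12 below (median -0.13). Rnf145, a ubiquitin ligase of sterol sensing, had a log2 fold change of -0.31, and Sec24d, a coat protein of vesicles leaving the endoplasmic reticulum, of -0.29. Among 11 genes of lipoprotein uptake, 2 were above 0 and 9 below (median -0.20). Mylip, the ligase that degrades lipoprotein receptors, lay at 56.9 and 19.9 CPM in Ctrl and 30.7 and 24.0 CPM in Olfm4CKO (-0.51), so that its groups overlapped. Vldlr, a receptor for triglyceride-rich lipoproteins, had a log2 fold change of -0.36 and the lysosomal membrane protein Lamp2 -0.29. Among 12 targets and partners of liver X receptors, a list that also holds the members Abca1 and Abcg1, 3 were above 0 and 9 below (median -0.22), with Mylip again, the receptor partner Rxra at -0.38 and the phospholipid transfer protein Pltp at -0.31.

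The 3 genes with an unadjusted p under 0.05 lay in the last lists. Among 5 genes of oxysterol and ester metabolism, 3 were above 0 and 2 below. Lcat, which esterifies cholesterol on lipoproteins, was at 0.19 and 0.29 CPM in Ctrl and 2.12 and 0.72 CPM in Olfm4CKO, for a fitted log2 fold change of 2.50 ± 0.88 at counts too low for a firm value. Ces1d, a carboxylesterase, lay at 1360 and 1301 CPM in Ctrl and 690.5 and 854 CPM in Olfm4CKO, for a fitted log2 fold change of -0.82 ± 0.36, and Cyp27a1, a mitochondrial sterol hydroxylase, had -0.33. Among 15 genes of non-vesicular sterol transfer, 6 were above 0 and 9 below (median -0.03). Gramd1b, which carries cholesterol from the plasma membrane to the endoplasmic reticulum, lay at 151 and 21.6 CPM in Ctrl and 34.5 and 19.2 CPM in Olfm4CKO. Ctrl replicate 1 stood far above the other libraries, the groups overlapped, and the fitted log2 fold change of Gramd1b was -1.70 ± 0.69. Scp2, a sterol carrier of peroxisomes, had -0.37 and Gramd1c, a relative of Gramd1b, 0.50. The adjusted p in edgeR was 0.9998 for every gene named from these lists.

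Marker lists of cell types that the depot could hold also differed between libraries. The summed brown adipocyte markers were 18140 and 22560 CPM in Ctrl and 18800 and 11150 CPM in Olfm4CKO, with Olfm4CKO replicate 2 lowest. Among these 10 markers 2 had a log2 fold change above 0 and 8 below, with 0 calls. Ctrl replicate 2 was highest for the 12 macrophage markers, at 459 CPM against 196 to 280 CPM, and for the T and NK markers, of which 8 of 10 had a row, at 61.4 CPM against 14 to 24.4 CPM. The 10 Schwann cell markers summed to 308 and 518 CPM in Ctrl and 221 and 185 CPM in Olfm4CKO, so that both Olfm4CKO sums lay below both Ctrl sums. Of these markers 7 had both Olfm4CKO libraries below both Ctrl libraries, against 11% of all genes tested. In edgeR 5 had an unadjusted p under 0.05, against 2.11% of all genes, but 0 passed the adjusted threshold. The myelin gene Mbp, 1 of these 5, lay at 103.5 and 100.3 CPM in Ctrl and 40.6 and 46.2 CPM in Olfm4CKO. The list was not uniform: 8 of the 10 had a log2 fold change below 0 and 2 above. The 8 endothelial markers summed to 1049 and 914 CPM in Ctrl and 1566 and 1448 CPM in Olfm4CKO, with no overlap between the groups. Taken singly, 4 of the 8 had both Olfm4CKO libraries above both Ctrl libraries, against 13.1% of all genes tested, and the rest overlapped. The 7 stromal markers summed to 964 and 1241 CPM in Ctrl and 496 and 1264 CPM in Olfm4CKO. All 7 had a log2 fold change below 0 (median -0.39) with 0 calls. Taken singly, 3 of the 7 had both Olfm4CKO libraries below both Ctrl libraries, against 11% of all genes tested. The 5 erythroid markers summed to 813 and 1322 CPM in Ctrl and to 977 and 1723 CPM in Olfm4CKO. The macrophage, T and NK, stromal and erythroid sums were higher in replicate 2 of both groups, as 13 of the 18 synthesis genes were. Taken singly, the macrophage markers did not all share this order in Olfm4CKO. More of them were higher in replicate 2 than lower, among them Lyz2 at 57.95 and 103.6 CPM in replicates 1 and 2. The lower ones included C1qa at 36.6 and 32.1 CPM. The 8 skeletal muscle markers were highest in Olfm4CKO replicate 1, at 167 CPM against 11.4 to 56.4 CPM, and lowest in Ctrl replicate 2. The white adipocyte markers, of which 5 of 6 had a row, summed to 80.7 and 75.3 CPM in Ctrl and 119 and 133 CPM in Olfm4CKO, again without overlap. All 5 had a log2 fold change above 0 (median 0.64) with 0 calls. Taken singly, 2 of the 5 had both Olfm4CKO libraries above both Ctrl libraries, against 13.1% of all genes tested. Only Myh2, a muscle marker, was at 0 in a library, Ctrl replicate 2. The part of these cell types in the members' values was not tested.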

How the data were processed

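Messenger RNA libraries of brown fat were sequenced by the authors. The submitters' processing notes name cutadapt 1.11, HISAT2 2.1.0, featureCounts 1.6.0 and the build mm10. Annotation and strand setting: not given in the sources used here. Although its name says FPKM, the deposited table holds whole numbers with unequal column totals, which were used as raw counts. It has 35978 rows, of which 3 hold no counts and 27 have a date for a symbol. The 2 columns of replicate 3 fill only 24276 rows and do not follow the gene names (rank correlation -0.0209 to -0.0156 with the other columns, against 0.9399 to 0.947 among those), so 2 libraries per group were used. Totals of 15346705 to 17309325 counts gave members 25 to 6544 counts per library.

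The groups were compared in edgeR 4.0.16 under R 4.3.3 with filterByExpr (minimum count 10, minimum total 15), TMM scaling, the quasi-likelihood test on group and Benjamini-Hochberg adjustment over all tested genes at 0.05. A standard error is the absolute log2 fold change over the root of F, and 95% intervals come from the fit. CPM is a count scaled to a column total of 1000000. Lengths are merged exons of GENCODE vM21 basic transcripts, and coordinates are RefSeq's on GRCm38.p6. The code was tested on simulated data. Alternatives were other scalings, no filter and a stricter one (1 CPM in 2 libraries), DESeq2 1.42.0, limma-voom (limma 3.58.1), each library left out and the replicate number as a block.

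The 28 members and all lists were chosen with earlier results of these data known. All members are named, with up to 3 genes of smallest p from each of 7 further pathway lists and, for cell types, list sums and up to 2 markers. Some of these genes are not reported here. Genes called under an alternative, Xist and Y-linked genes were named after their values were seen.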

Additional observations from a re-analysis of the deposited data

How the results depend on the processing

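No member was called under any of 12 alternatives. Over all genes, the count of 0 became 4 with DESeq2 (Cyp2b10 and the Y-linked Eif2s3y, Uty and Ddx3y) and 4 with the replicate block, stayed 0 under the other settings that kept all 4 libraries, and lay between 6 and 27 with 1 library left out. The labels state no pairing behind the replicate block. The deviations of same-numbered libraries correlated at -0.062 across genes, a value that cannot show whether such libraries were handled together. The members' median log2 fold change was -0.17 to -0.12 under the 8 settings that kept all libraries, and -0.43 without Ctrl replicate 1, 0.20 without Ctrl replicate 2, 0.12 without Olfm4CKO replicate 1 and -0.52 without Olfm4CKO replicate 2. The largest log2 fold changes of members with 1 library left out were -2.20 for Idi1 and -1.92 for Insig1, both without Olfm4CKO replicate 2. In such fits a group of 1 library borrows its spread from the other group.

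Of 224 member values under the 8 settings, 216 kept their sign. The exceptions were Mvd (0.0017 with DESeq2 size factors, 0.036 with library totals, 0.12 with limma-voom, 0.11 with the replicate block), Hsd17b7 (-0.13 with limma-voom, -0.11 with the block) and Dhcr7 (-0.019 and -0.016). With 1 library left out, 36 of 112 values changed sign, in 23 members; Tm7sf2, Ebp, Scap, Stard4 and Npc2 kept theirs. The ranges of log2 fold change were -0.78 to 0.16 for Acat2, -0.28 to 0.00077 for Hmgcs1, -0.52 to 0.29 for Mvk, -1.48 to 0.36 for Pmvk, -0.52 to 0.80 for Mvd, -2.20 to 0.28 for Idi1, -1.26 to 0.72 for Fdps, -0.22 to 0.31 for Fdft1, -0.35 to 1.19 for Sqle, -0.53 to 0.54 for Lss, -0.75 to 0.37 for Cyp51, -0.63 to 0.50 for Msmo1, -0.53 to 0.98 for Nsdhl, -1.003 to 0.75 for Hsd17b7, -0.52 to 0.48 for Sc5d, -0.69 to 0.56 for Dhcr7, -0.15 to 0.49 for Srebf2, -1.92 to 0.29 for Insig1, -0.32 to 0.023 for Insig2, -0.85 to 0.69 for Abca1, -0.34 to 0.57 for Abcg1, -0.78 to 0.84 for Npc1 and -0.64 to 0.24 for Soat1. The cause of these changes was not tested, beyond that each of these fits holds fewer libraries. Precision was limited by 2 libraries per group, with a biological coefficient of variation of 32.55%, and for the lowest members also by counting error, since the smallest member count in a library was 25.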
